A study of Homo sapiens with 12 samples.

Results

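The 77 genes of the cytosolic ribosomal proteins were followed in the human breast cancer line MDA-MB-231, which lacks hormone receptors. They are the rows of a count table of 24641 gene symbols whose names follow the standard RPL, RPS, RPLP and RPSA pattern. They comprise 31 genes of the small (40S) subunit, 43 of the large (60S) subunit and 3 of the P stalk, which also belongs to the large subunit. The pattern reads names and no measured value, and all 77 had enough counts to be tested among 15648 genes. The symbol pattern leaves out ribosomal proteins with other names, such as FAU and RACK1, and the paralogs, which are given apart.

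A ribosome needs its proteins in nearly equal numbers, so their genes are expressed together and their mRNAs are among the most abundant in growing cells. Transcription of most of them begins at a C followed by a run of pyrimidines, the 5' terminal oligopyrimidine (TOP) tract. Through this tract LARP1 and the growth-controlling kinase mTOR adjust translation of these mRNAs, and low oxygen is known to restrain mTOR through DDIT4.

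The study asked what RIPOR3 does in breast tumour growth and spread. Its groups were shRIPOR3 cells (RIPOR3 knockdown) and shControl cells, labelled WT for genotype, each kept in hypoxia (1% O2 for 24 hours) or normoxia, with 3 RNA-seq libraries per group. The sources used here give neither hairpin sequences nor whether a line is 1 clone, and shRIPOR3 against shControl compares a single pair of lines. Nor do they tie the replicates to separate cultures. The p-values thus rest on differences among libraries that could be technical in part.

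Library totals were 31781324 to 52526813 counts in hypoxia and 14750734 to 30032858 in normoxia, so depth differed with oxygen. RIPOR3 was scarce. It had 9, 3 and 11 counts in hypoxia shRIPOR3 libraries against 33, 18 and 30 in hypoxia shControl libraries. In normoxia it had 0, 0 and 1 counts in shRIPOR3 against 7, 3 and 7 in shControl, and at each oxygen level every shRIPOR3 library was lower. Markers of this mesenchymal line such as VIM (401 to 760 CPM, counts scaled to the library size) and CD44 (438 to 520 CPM) were high. ESR1 and PGR, the hormone receptors that define luminal tumours, stayed at or below 0.683 CPM, although the epithelial keratin KRT19 reached 60.9 to 91.2 CPM. The leukocyte markers PTPRC, CD3E and CD68 were at or below 0.165 CPM. Of the epithelial markers, EPCAM was at 4.21 to 8.01 CPM and CDH1 at 0.770 to 1.65 CPM. The endothelial markers PECAM1 and CDH5 reached 5.60 and 8.59 CPM, while VWF stayed at or below 0.2711 CPM. The fibroblast marker COL1A1 was at 1.85 to 4.48 CPM, and DCN and LUM were at or below 0.1674 CPM.

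Start sites are shown first because they carry the feature that these genes share. The set of RefSeq (GRCh38.p14) promoter windows used here covered 62 of the 77 genes. A C at the annotated start followed by 4 pyrimidines stood in 42 of them (67.7%), against 4.60% of 15843 protein-coding promoters. Allowing 5 bases on either side of the start raised this to 80.6% of the ribosomal protein genes and 22.1% of protein-coding promoters. The lines below give the 20 bases before and the 20 from the annotated start, 5' to 3' on the coding strand, with the unbroken pyrimidine run from the start in capitals. RPLP1, RPLP0 and RPLP2 are shown because the P stalk genes diverged under the knockdown, RPL36 and RPS12 because they rose most there, RPL24 and RPS7 because they fell most under hypoxia in shControl, and RPL22 because it was called in 1 of the 4 comparisons.
RPLP1: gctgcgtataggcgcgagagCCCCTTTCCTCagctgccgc
RPLP0: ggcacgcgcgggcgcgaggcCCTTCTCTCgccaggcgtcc
RPLP2: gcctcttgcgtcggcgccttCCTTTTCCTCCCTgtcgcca
RPL36: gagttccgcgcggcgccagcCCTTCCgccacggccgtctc
RPS12: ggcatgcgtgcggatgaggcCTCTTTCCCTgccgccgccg
RPL24: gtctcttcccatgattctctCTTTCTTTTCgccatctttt
RPS7: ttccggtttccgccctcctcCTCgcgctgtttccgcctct
RPL22: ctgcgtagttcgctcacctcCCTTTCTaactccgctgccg

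The windows lie at chr15:69452798-69452837 on the plus strand (RPLP1), chr12:120201092-120201131 on the minus strand (RPLP0), chr11:809947-809986 on the plus strand (RPLP2) and chr19:5690275-5690314 on the plus strand (RPL36). Those of the others are chr6:132814549-132814588 on the plus strand (RPS12), chr3:101686699-101686738 on the minus strand (RPL24), chr2:3575240-3575279 on the plus strand (RPS7) and chr1:6199576-6199615 on the minus strand (RPL22). RPS7 has only a short run at its start, and the other 7 hold a full tract, whichever way the gene moved. Medians with and without a tract at the start lay close together. The split rests on the exact annotated start base: RPL11, RPS28 and RPS7, among others, count as without but hold a tract within 5 bases. The medians thus cannot tell whether a tract matters. For hypoxia in shRIPOR3 the median log2 fold change was -0.46 for the 42 genes with a tract and -0.47 for the 20 without, and in shControl the medians were -0.49 and -0.55. For the knockdown the medians were 0.34 and 0.34 in hypoxia and 0.27 and 0.27 in normoxia.

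Other promoter words were counted on both strands of the 300-base window, from 250 bases before to 50 after the start. CCGGAAG, the core bound by ETS factors, stood in 33.9% of the ribosomal protein promoters and in 14.2% of protein-coding ones. AAGATGGC, the YY1 core, stood in 9.68% and 3.91%. ACGTG, the core of the hypoxia response element, stood in 30.6% and 23.7%. CACGTG, the E-box bound by MYC, which contains ACGTG, stood in 4.84% and 8.88%. TATAAA stood in 8.06% and 9.63%. In 67 promoters of mitochondrial ribosomal proteins CCGGAAG stood in 40.3%, AAGATGGC in 29.9%, ACGTG in 26.9%, CACGTG in 7.46% and TATAAA in 2.99%. CCGGAAG stood in 70% of 10 promoters of RNA polymerase I genes and in 25% of 16 promoters of ribosome biogenesis factors.

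Together the 77 genes were a sizeable part of the library, and their share of all counts moved with both factors. They made up 4.90%, 4.77% and 4.96% of the counts in hypoxia shRIPOR3 libraries and 4.17%, 4.11% and 4.17% in hypoxia shControl libraries. In normoxia they made up 6.44%, 6.19% and 6.34% in shRIPOR3 and 5.55%, 5.59% and 5.71% in shControl. The 4 groups did not overlap: hypoxia was below normoxia in both lines, and shRIPOR3 was above shControl at both oxygen levels. Group means were 4.88 ± 0.0956% in hypoxia shRIPOR3, 4.15 ± 0.0331% in hypoxia shControl, 6.32 ± 0.124% in normoxia shRIPOR3 and 5.62 ± 0.0825% in normoxia shControl (SD, n = 3 each). Such shares are relative to the rest of the RNA, and in bulk samples fewer ribosomal protein mRNAs per cell and more of other mRNAs cannot be told apart.

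**Figure D1:**
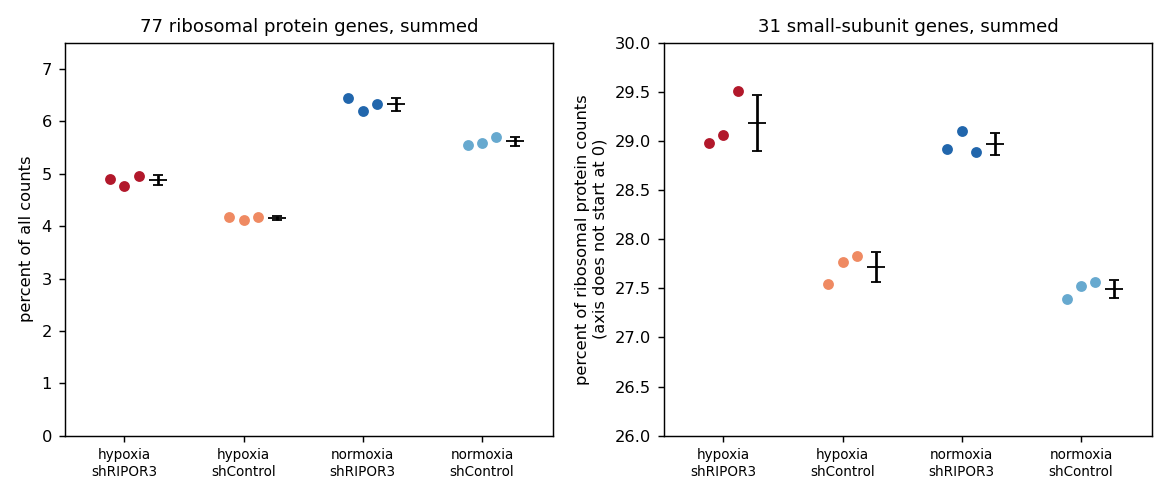
Left, percent of all counts held by the 77 ribosomal protein genes; right, percent of those counts held by the 31 small-subunit genes (axis not from 0). Each point is 1 library and the bar is the mean ± SD of 3; the share of all counts was 4.77 to 4.96% in hypoxia shRIPOR3, 4.11 to 4.17% in hypoxia shControl, 6.19 to 6.44% in normoxia shRIPOR3 and 5.55 to 5.71% in normoxia shControl.

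Levels differed far more between the genes than between conditions. Per kilobase of mRNA, with the median annotated transcript as the length, the mean over all libraries ran to 3923 CPM per kb for RPL23A, 3667 for RPL5, 3074 for RPL27 and 2741 for RPL19, all proteins of the large subunit. It was lowest for RPL22 (15.9 CPM per kb), RPS28 (12.1), RPL36A (5.28) and RPS10 (0.502). RPS10 had 133 counts in all 12 libraries, and 39.4% of its exon bases are shared on the same strand with the read-through gene RPS10-NUDT3, which had 15 counts. The order of levels hardly moved, with Spearman correlations of 0.990 to 0.997 between the group means over the 77 genes. Low counts at genes with overlapping annotation are levels in this table and may not measure the mRNA. Of the 77 genes, 35 share exon bases with another gene on the same strand and 8 share over 10%, among them RPL13A, RPL17, RPL26, RPL36, RPL7A, RPS10 and RPS2. The table also holds 283 rows of ribosomal protein pseudogenes, which took 2.73 to 2.90 counts for each 100 counts of the genes. How reads that match both were counted is not stated, so the level of a gene with near-identical copies is uncertain.

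Hypoxia lowered almost the whole set by a similar amount in both lines. In shRIPOR3 cells 71 of the 77 genes fell and 1 rose at an adjusted p under 0.05, with a median change of -27.4% (log2 -0.46). Over all genes tested 30.4% were called lower and 25.2% higher, with a median of -0.01. The genes not called were RPL22, RPL26, RPS28, RPL36A and RPS10. Hypoxia and normoxia libraries did not overlap in 72 genes that were lower and 2 that were higher, against 32.6% and 28.5% of all genes. Abundant genes as a class were lower too: 2020 other genes at 100 CPM or more had a median of -0.17. After all libraries were thinned to the smallest total the counts were again 71 and 1, with a median of -0.45.

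The steepest decreases were in RPL5, RPS27A, RPL21 and RPL23. RPL5 had 2710, 2837 and 2743 CPM in hypoxia and 4887, 4472 and 4433 CPM in normoxia (log2 fold change -0.73 ± 0.0436, ± SE here and below). RPS27A, which is made as a fusion with ubiquitin, had 303, 269 and 321 CPM in hypoxia and 517, 453 and 515 CPM in normoxia (log2 -0.73 ± 0.0555). No hypoxia library of either gene reached a normoxia library. RPL21 fell by 0.68 ± 0.0402 and RPL23, another protein that binds MDM2, by 0.65 ± 0.0514.

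In shControl cells 74 of the 77 genes fell in hypoxia and 0 rose, and the median change was -30.2% (log2 -0.52). Over all genes 32.4% were lower and 32.4% higher, with a median log2 fold change of 0.02. In edgeR's test 75 genes were lower and 0 higher at an unadjusted p under 0.05, and DESeq2 called 74 lower and 0 higher. In 75 of the 77 genes the hypoxia libraries all lay below the normoxia libraries, against 33.1% of all genes. RPS10 and RPL36A were among the genes not called. The 2020 other genes at 100 CPM or more had a median of -0.20. The count was again 74 after thinning, with a median of -0.50.

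RPS7, a small-subunit protein that also binds MDM2, fell most. It had 302, 297 and 268 CPM in hypoxia and 509, 531 and 484 CPM in normoxia, a log2 fold change of -0.81 ± 0.0455 (adjusted p = 1.26e-13). RPL24, of the large subunit, fell by 0.74 ± 0.037 on the log2 scale. RPS23, at the decoding centre, fell by 0.73 ± 0.0379, and RPS13 by 0.72 ± 0.0432. In each of these 4 the 3 hypoxia libraries lay below the 3 normoxia libraries. RPL5, which with RPL11 carries the 5S rRNA into the ribosome and can restrain MDM2, had 2822, 3010 and 2991 CPM in hypoxia and 4958, 4721 and 4651 CPM in normoxia (log2 -0.70 ± 0.0436). RPL11 fell by 0.51 ± 0.0375. RPSA, the small-subunit protein also known as the laminin receptor, fell by 0.68 ± 0.0362, and RPS6, the target of S6 kinase, by 0.46 ± 0.0554. RPS4X and RPL10, both X-linked, fell by 0.68 ± 0.0656 and 0.44 ± 0.0442. RPL39 and RPL41, among the smallest ribosomal proteins, fell by 0.38 ± 0.0537 and 0.45 ± 0.0396.

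At the weak end stood RPL22, an RNA-binding protein of the large subunit. It had 22.0, 20.2 and 21.2 CPM in hypoxia and 25.6, 22.9 and 24.8 CPM in normoxia (log2 -0.22 ± 0.0523, adjusted p = 0.000784). The groups did not overlap, but with library totals as the only scale the adjusted p was 0.0777. RPL13A, which also silences inflammatory mRNAs when released from the ribosome, fell by 0.33 ± 0.0382. RPL12 had 956, 903 and 499 CPM in hypoxia, so 1 of its 3 libraries stood apart, and 1228, 1162 and 1196 CPM in normoxia (log2 -0.60 ± 0.143).

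**Figure D2:**
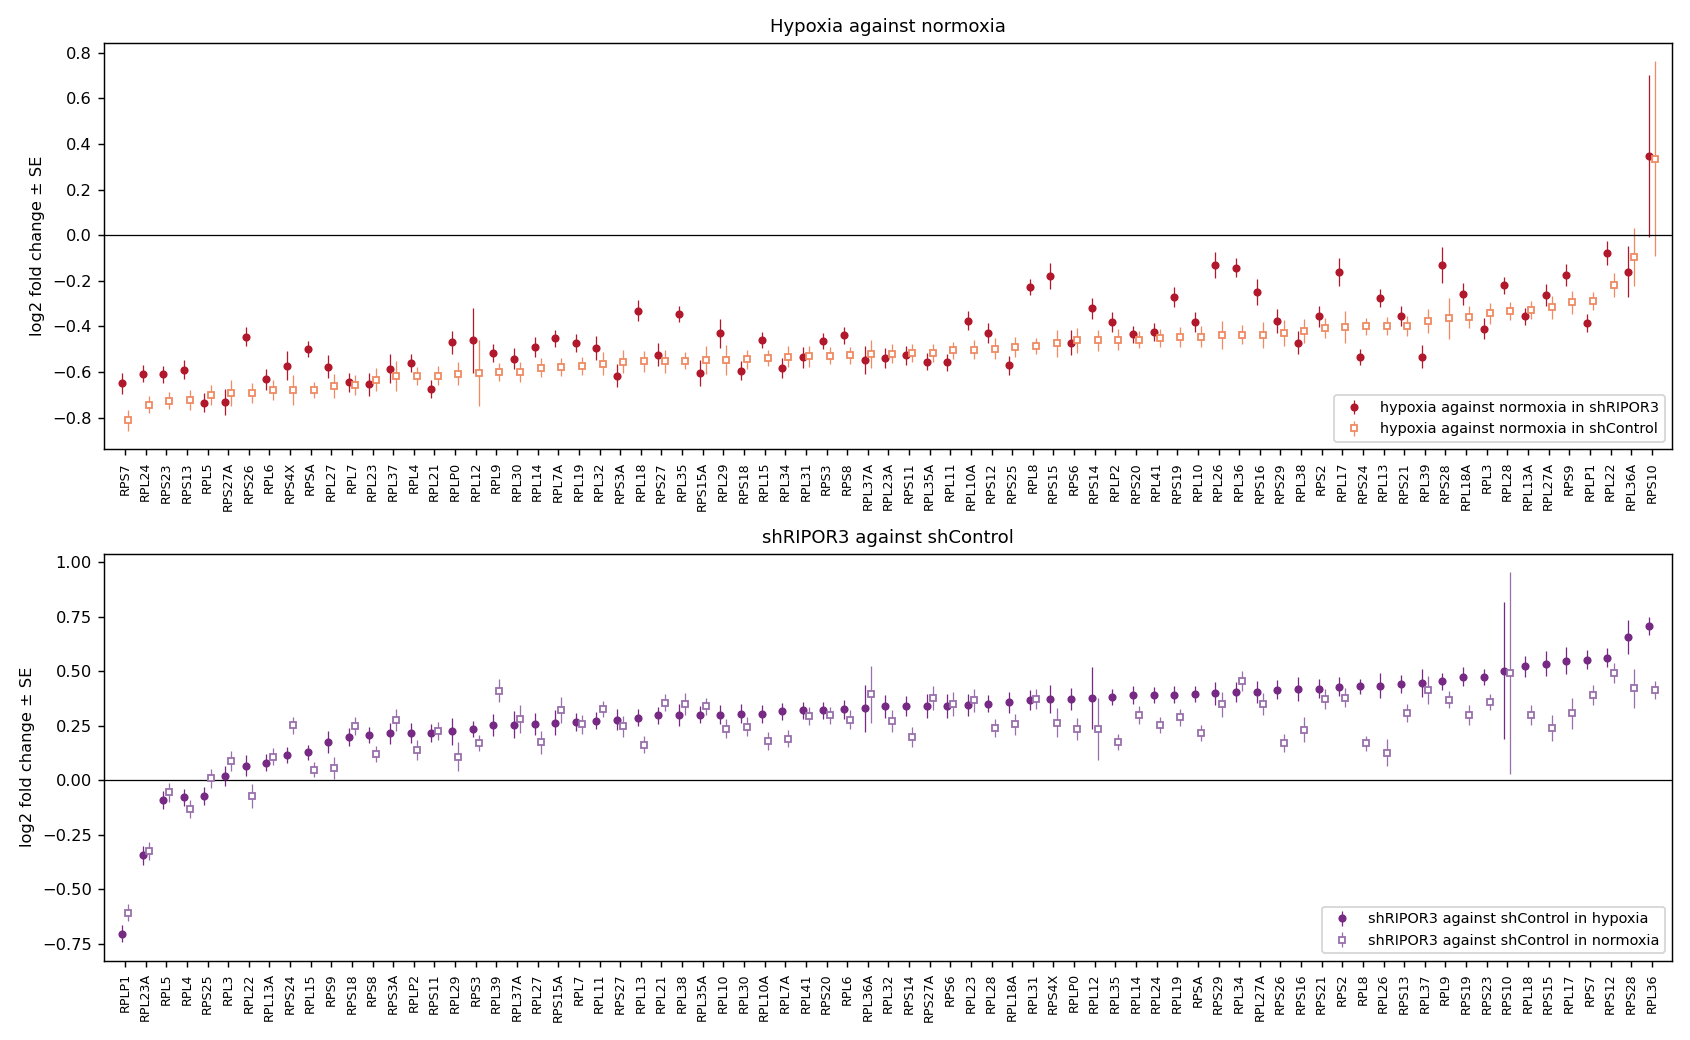
Log2 fold change ± SE of 75 of the 77 genes; above, hypoxia against normoxia in shRIPOR3 (filled) and shControl (open), below, shRIPOR3 against shControl in hypoxia (filled) and normoxia (open). Genes run from the lowest to the highest value in shControl (above) and in hypoxia (below); most points lie under 0 above and over 0 below, RPLP1 and RPL23A stand at the left of the lower panel, and RPS10 has the widest errors.

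The responses of the 77 genes to hypoxia in the 2 lines, which share no library, had a Pearson correlation of 0.823 and a Spearman correlation of 0.772 across genes. Without the 8 genes that share over 10% of exon bases these were 0.760 and 0.746. Genes are not independent replicates, so these describe likeness only. Both subunits moved alike. In shRIPOR3 the small subunit had a median of -0.45 (28 of 31 lower) and the large subunit -0.47 (40 of 43 lower). In shControl the medians were -0.50 (29 of 31 lower) and -0.53 (42 of 43 lower).

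The knockdown moved the set the other way. In hypoxia 68 of 77 genes were higher and 2 lower in shRIPOR3 than in shControl, with a median change of 26.5% (log2 0.34). Over all genes 30.7% were higher and 31.2% lower, with a median of -0.00285. Libraries did not overlap in 67 genes that were higher and 3 that were lower, against 32.6% and 33.4% of all genes. The 2020 other genes at 100 CPM or more had a median of 0.05.

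RPL36, of the large subunit, rose most. It had 312, 294 and 309.5 CPM in shRIPOR3 and 186, 179 and 194 CPM in shControl, in hypoxia (log2 0.71 ± 0.0403, adjusted p = 2.35e-13). No shControl library reached the lowest shRIPOR3 library. Of its exon bases 17.6% are shared with HSD11B1L, and how reads in shared bases were counted is not stated. RPS28 had 18.4, 16.9 and 19.1 CPM in shRIPOR3 and 13.4, 10.5 and 10.4 CPM in shControl (log2 0.66 ± 0.0784). The lines stood apart at this low level. RPS12 rose by 0.56 ± 0.0438 and RPS7, the gene that fell most under hypoxia in shControl, by 0.55 ± 0.045. RPSA rose by 0.40 ± 0.036, RPS4X by 0.37 ± 0.065, RPS6 by 0.34 ± 0.0552, RPS27A by 0.34 ± 0.0555 and RPL41 by 0.32 ± 0.0388. RPL10 rose by 0.30 ± 0.0434, RPL11 by 0.27 ± 0.0373 and RPL39 by 0.25 ± 0.0508, while RPL13A was at 0.08 ± 0.038 (adjusted p = 0.0691).

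In normoxia 63 of 77 genes were higher and 3 lower in shRIPOR3 than in shControl, with a median change of 19.5% (log2 0.26). Over all genes 25.1% were higher and 20.6% lower, with a median of 0.03. Libraries did not overlap in 65 genes that were higher and 3 that were lower, against 28.2% and 23.6% of all genes. The 2020 other genes at 100 CPM or more had a median of 0.02, and the 2626 genes with mRNAs under 1000 bases had a median of 0.13.

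RPS12, a protein of the small subunit, rose most among the genes at 5 CPM or more. It had 442, 435 and 405 CPM in shRIPOR3 and 288, 320 and 304 CPM in shControl, in normoxia (log2 0.49 ± 0.0444, adjusted p = 2.63e-09). RPL34 had 335, 308 and 304 CPM in shRIPOR3 and 223, 246 and 222 CPM in shControl (log2 0.45 ± 0.0461). Libraries of the lines were apart for both. RPS28 rose by 0.42 ± 0.0893 and RPL36 by 0.41 ± 0.041. Of the genes followed for their roles, RPL39 rose by 0.41 ± 0.0537, RPS27A by 0.38 ± 0.0558, RPS6 by 0.35 ± 0.0554, RPL11 by 0.33 ± 0.0375 and RPL41 by 0.30 ± 0.0396. RPS4X rose by 0.26 ± 0.0653, RPL10 by 0.24 ± 0.0443, RPSA by 0.22 ± 0.036 and RPL13A by 0.11 ± 0.0382. The call of RPL13A was lost without replicate 2 or 3 of normoxia shRIPOR3, of normoxia shControl or of hypoxia shControl, each left out alone (adjusted p = 0.0568 to 0.076), and when only the groups compared were fitted (0.101).

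A few genes went against the rest under the knockdown, RPLP1 most of all. RPLP1 encodes P1, which pairs with P2 (RPLP2) on the P0 base (RPLP0) to form the stalk that recruits elongation factors. It lies on chromosome 15 from 69452784 to 69456194 on the plus strand (GRCh38). It had 315, 305 and 322 CPM in shRIPOR3 and 522, 489 and 522 CPM in shControl in hypoxia (log2 -0.70 ± 0.0388, adjusted p = 1.39e-13). In normoxia it had 410, 398 and 421 CPM in shRIPOR3 and 607, 639 and 627 CPM in shControl (log2 -0.61 ± 0.0392, adjusted p = 7.52e-12). In each oxygen condition every shRIPOR3 library was below every shControl library, and over the alternatives the log2 fold change stayed between -0.72 and -0.68 in hypoxia and between -0.64 and -0.59 in normoxia.

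Its partners rose in the same libraries. RPLP2 had 906, 950 and 969 CPM in shRIPOR3 and 812, 766 and 851 CPM in shControl in hypoxia (log2 0.22 ± 0.0449). RPLP0 had 2255, 2115 and 2228 CPM in shRIPOR3 and 1693, 1655 and 1743 CPM in shControl in hypoxia (log2 0.37 ± 0.0497). Both were apart by line. In normoxia RPLP2 had 1221, 1240 and 1217 CPM in shRIPOR3 and 1155, 1035 and 1146 CPM in shControl (log2 0.14 ± 0.0451), and its adjusted p of 0.0135 became 0.0508 without replicate 2 of normoxia shRIPOR3 and 0.1001 without replicate 2 of normoxia shControl. RPLP0 in normoxia had 3034, 3070 and 3040 CPM in shRIPOR3 and 2668, 2312 and 2777 CPM in shControl (log2 0.24 ± 0.0497), again without overlap. The count of RPLP1 for each RPLP2 count was 0.348, 0.321 and 0.332 in hypoxia shRIPOR3 and 0.642, 0.638 and 0.613 in hypoxia shControl. In normoxia it was 0.336, 0.321 and 0.346 in shRIPOR3 and 0.526, 0.617 and 0.547 in shControl. The ratio separated the lines at both oxygen levels. Under hypoxia all 3 fell in both lines: RPLP1 by 0.38 ± 0.0391 in shRIPOR3 and 0.29 ± 0.0387 in shControl, RPLP2 by 0.38 ± 0.045 and 0.46 ± 0.0452, and RPLP0 by 0.47 ± 0.0497 and 0.61 ± 0.0498.

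**Figure D3:**
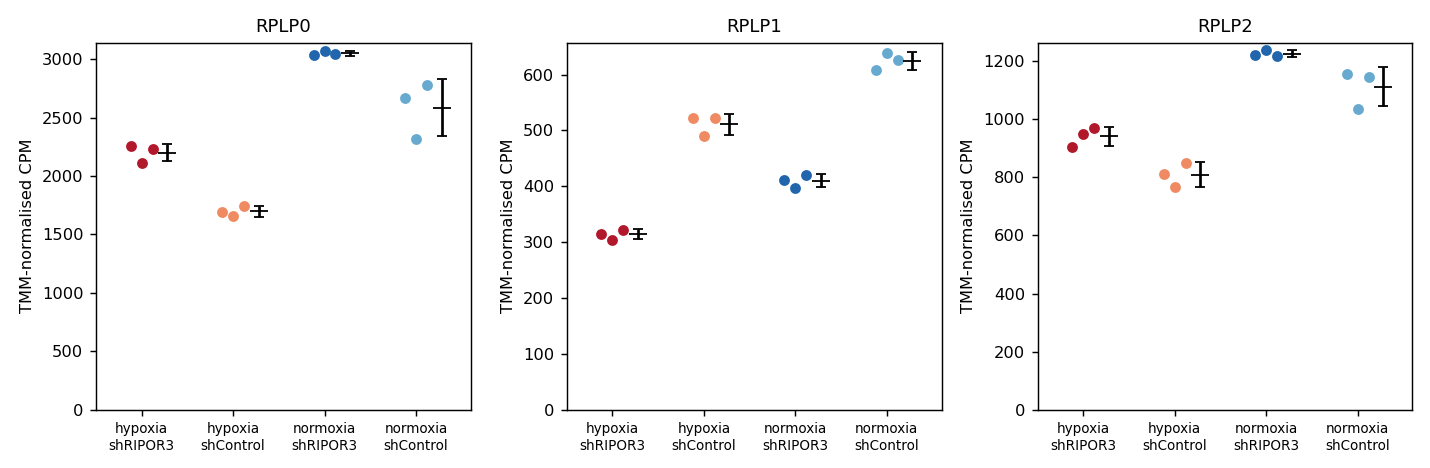
TMM-normalised CPM of the 3 P stalk genes in each library, with the mean ± SD of 3 beside the points. RPLP1 is lower in shRIPOR3 than in shControl at both oxygen levels (305 to 322 against 489 to 522 CPM in hypoxia), while RPLP0 and RPLP2 are higher.

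RPL23A, a protein at the exit of the peptide tunnel that binds the signal recognition particle, was the other gene lower in both oxygen conditions. It had 1836, 1891 and 1909 CPM in shRIPOR3 and 2359, 2333 and 2460 CPM in shControl in hypoxia (log2 -0.34 ± 0.0428, adjusted p = 2.04e-07). In normoxia it had 2766, 2707 and 2721 CPM in shRIPOR3 and 3163, 3559 and 3532 CPM in shControl (log2 -0.32 ± 0.0429). The lines did not overlap in either condition. RPL4 was lower in normoxia, at 1378, 1396 and 1429 CPM in shRIPOR3 and 1576, 1454 and 1574 CPM in shControl (log2 -0.13 ± 0.0395). Its adjusted p of 0.00843 became 0.0527 without replicate 3 of normoxia shControl, and in hypoxia it was -0.08 ± 0.0394 and was not called. RPL5 was called in neither condition, at -0.09 ± 0.0434 in hypoxia and -0.06 ± 0.0434 in normoxia, whereas its partner RPL11 rose in both. RPL22 was at 0.07 ± 0.048 in hypoxia and -0.07 ± 0.0553 in normoxia and was called in neither.

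**Figure D4:**
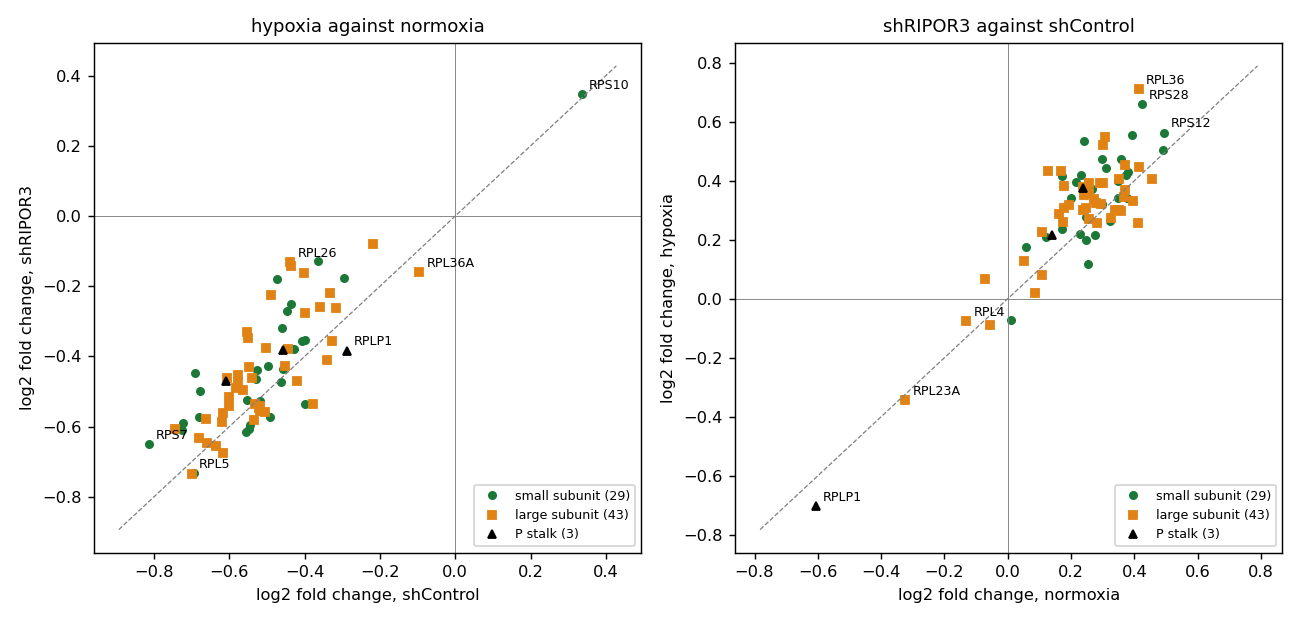
Each point is 1 of 75 of the 77 genes; left, log2 fold change of hypoxia against normoxia in shRIPOR3 (vertical) and shControl (horizontal), right, log2 fold change of shRIPOR3 against shControl in hypoxia (vertical) and normoxia (horizontal). The dashed line marks equal values; RPL26 lies above it on the left, and RPLP1 and RPL23A lie far below 0 on both axes on the right.

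The knockdown responses in hypoxia and normoxia, which share no library, had a Pearson correlation of 0.844 and a Spearman correlation of 0.609 across the 77 genes, and 64 were called in both with the same sign. Genes of higher level tended to have lower signed log2 fold changes under the knockdown. The Spearman correlation with level was -0.345 in hypoxia and -0.277 in normoxia. For hypoxia against normoxia it was likewise negative, at -0.407 in shRIPOR3 and -0.331 in shControl, where most genes fell. With mRNA length the knockdown correlations were -0.165 in hypoxia and -0.208 in normoxia.

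The small subunit rose in 29 of 31 genes in hypoxia and 27 of 31 in normoxia, and the genes called lower in edgeR (RPLP1, RPL23A and RPL4) all belong to the large subunit. The large subunit without the stalk rose in 37 of 43 genes in hypoxia, with 1 lower, and in 34 of 43 in normoxia, with 2 lower. Small-subunit genes held 28.98 to 29.5% of the ribosomal protein counts in hypoxia shRIPOR3 and 27.5 to 27.8% in hypoxia shControl, and 28.9 to 29.1% in normoxia shRIPOR3 and 27.4 to 27.6% in normoxia shControl. RPLP1, RPL23A, RPL4 and RPL5 are abundant large-subunit genes that did not rise. Without these 4, picked because they did not rise, which by itself narrows the gap, the ranges over both oxygen levels were 33.1 to 33.8% in shRIPOR3 and 33.1 to 33.6% in shControl.

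Each gene was then set against the summed counts of the 77, which removes the shift of that sum. Abundant genes weigh most in the sum, and RPL23A, RPL5 and RPL4 did not rise under the knockdown. Part of the rise shared by most genes can therefore remain in the counts below. Under the knockdown 33 genes rose and 10 fell relative to that sum in hypoxia, and 29 rose and 9 fell in normoxia. All genes tested, on the same scale, were higher in 12.7% and lower in 51.9% in hypoxia, and higher in 9.47% and lower in 37.5% in normoxia. RPL15, RPL22, RPL23A, RPL4, RPL5, RPLP1 and RPS25 fell at both oxygen levels, 7 of the 10 and 7 of the 9. RPLP1 was at -0.93 ± 0.0396 in hypoxia and -0.79 ± 0.0399 in normoxia, RPL23A at -0.57 ± 0.0442 and -0.50 ± 0.0442, RPL5 at -0.32 ± 0.0469 and -0.24 ± 0.0469, and RPL4 at -0.31 ± 0.0411 and -0.31 ± 0.0412. Of the genes that rose, 19 were shared, among them RPL36 (0.48 ± 0.0415 and 0.23 ± 0.0422), RPS12 (0.33 ± 0.0489 and 0.31 ± 0.0495), RPS28 and RPL34.

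Under hypoxia 27 genes rose and 10 fell relative to the sum in shRIPOR3, and 21 rose and 11 fell in shControl. On this scale 73.6% of all genes were higher and 1.17% lower in shRIPOR3, and 74.5% and 3.21% in shControl. RPL24, RPL5, RPL6, RPL7, RPS23, RPS27A and RPS7 fell relative to the sum in both lines, 7 of the 10 and 7 of the 11. RPS7 was at -0.15 ± 0.0524 in shRIPOR3 and -0.27 ± 0.0529 in shControl. RPL22 rose relative to the sum, by 0.42 ± 0.0545 in shRIPOR3 and 0.33 ± 0.0555 in shControl, and RPLP1 by 0.11 ± 0.0396 and 0.26 ± 0.0393. The difference between the lines in this response was positive for 6 of the 77 genes and negative for 2, against 6.67% and 15.4% of all genes.

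The response to hypoxia was higher (a smaller fall or a rise) in shRIPOR3 than in shControl for 11 of the 77 genes. By the same test of the difference itself it was lower for 0. Over all genes 10.9% had a positive difference and 12.3% a negative one, and the positive count is near that background. At an unadjusted p under 0.05 edgeR gave 21 positive and 2 negative, and DESeq2 called 20 and 0. The median difference was 0.07 on the log2 scale, against -0.02 for all genes. The count was 21 without replicate 3 of hypoxia shControl, the library in which RPL12 stood apart, and 9 without replicate 1 of normoxia shControl.

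RPL36 fell by 0.14 ± 0.0401 in shRIPOR3 and 0.44 ± 0.041 in shControl, a difference of 0.29 ± 0.0573 (adjusted p = 0.000582). RPL26, which binds p53 mRNA, was at -0.13 ± 0.059 in shRIPOR3 and fell by 0.44 ± 0.0618 in shControl, a difference of 0.31 ± 0.0854. RPS15 differed by 0.30 ± 0.082, RPL8 by 0.26 ± 0.0495, RPS26 by 0.25 ± 0.0599 and RPL18 by 0.22 ± 0.0666. RPL35 differed by 0.20 ± 0.0525, RPSA by 0.18 ± 0.0509 and RPS19 by 0.18 ± 0.0624. The most negative differences were not called: RPL39 was at -0.16 ± 0.0739, RPS24 at -0.13 ± 0.0526, RPLP1 at -0.10 ± 0.055 and RPS25 at -0.08 ± 0.06. After thinning to the smallest total the adjusted p of RPL26, which shares over 10% of its exon bases, was 0.0802.

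Of the 11 genes, 5 lie on chromosome 19, which carries 12 of the 77. The median difference was 0.17 for these 12 and 0.06 for the other 65. Chromosome 19 was singled out after the values were seen, and no test was made.

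Ribosomal proteins that the symbol pattern leaves out behaved much like the set in hypoxia. Of 10 tested, 9 fell and 0 rose in shRIPOR3, and 9 fell and 0 rose in shControl, also at an unadjusted p under 0.05 and with DESeq2. Under the knockdown 7 rose and 1 fell in hypoxia, and 7 rose and 0 fell in normoxia by edgeR, at adjusted and unadjusted p, and by DESeq2. RACK1, a scaffold on the small subunit, fell by 0.34 ± 0.0376 in hypoxia in shRIPOR3 and 0.42 ± 0.0378 in shControl. It rose under the knockdown by 0.34 ± 0.0375 in hypoxia and 0.26 ± 0.0378 in normoxia. FAU is made as a fusion with a ubiquitin-like protein. It rose under the knockdown by 0.12 ± 0.044 in hypoxia and was at -0.01 ± 0.0444 in normoxia. The call in hypoxia was lost after thinning (adjusted p = 0.117), without replicate 2 of hypoxia shControl (0.0533) and without replicate 3 of hypoxia shRIPOR3 (0.107). RPL7L1, a paralog at work in pre-ribosomes, was the exception in hypoxia, at 0.04 ± 0.0366 in shRIPOR3 and -0.03 ± 0.0369 in shControl.

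Paralogs did not always follow their partners. RPL22L1 had 125, 117 and 128 CPM in hypoxia and 172, 165 and 189 CPM in normoxia in shRIPOR3 (log2 -0.51 ± 0.0499), a comparison in which RPL22 was not called (-0.08 ± 0.0514). RPL36AL was lower in shRIPOR3 than in shControl in hypoxia (-0.19 ± 0.0531), where RPL36A was higher (0.33 ± 0.107), a call lost after thinning to the smallest total (adjusted p = 0.697) and without replicate 1 of hypoxia shControl (0.0933). RPL39L was at -0.23 ± 0.102 in that comparison (adjusted p = 0.051), and RPS27L at 0.05 ± 0.064, while RPS27 rose by 0.28 ± 0.0487. The differences between partners were not tested.

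A list of other mRNAs known to carry a TOP tract moved with the set in hypoxia. RefSeq promoters were matched for 13 of its 19 genes, and 11 of these had a tract at the annotated start. Of 19, 16 fell and 2 rose in hypoxia in each line, with medians of -0.34 in shRIPOR3 and -0.42 in shControl. Of these 19, 3 are also among the ribosomal proteins with other names. The 2 that rose were EEF2, the elongation factor that drives translocation (0.31 ± 0.0443 in shRIPOR3 and 0.11 ± 0.0444 in shControl), and PABPC1, the poly(A)-binding protein (0.52 ± 0.046 and 0.63 ± 0.0462). In shControl 1 of the 19 rose with DESeq2, with its size factors, and without replicate 2 or 3 of normoxia shControl, replicate 2 of normoxia shRIPOR3 or replicate 1 or 3 of hypoxia shControl. EEF1A1, which delivers tRNAs, fell by 0.45 ± 0.0396 and 0.59 ± 0.0397. Under the knockdown 15 of the 19 rose and 1 fell in hypoxia, and 14 rose and 0 fell in normoxia by edgeR, at adjusted and unadjusted p, and by DESeq2.

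Regulators of TOP mRNAs moved in both directions. In hypoxia 8 of 14 rose and 4 fell in shRIPOR3, and 6 rose and 5 fell in shControl. Over all genes 25.2% rose and 30.4% fell in shRIPOR3, and 32.4% rose and 32.4% fell in shControl. The numbers that fell, and the 6 that rose in shControl, are near those shares. DDIT4, the inhibitor of mTOR, rose by 1.81 ± 0.05 in shRIPOR3 and 2.24 ± 0.0471 in shControl. Mean MTOR was also higher in hypoxia than in normoxia, at 60.1 against 37.3 CPM in shRIPOR3 and 60.1 against 37.2 CPM in shControl. So were RPTOR (79.4 against 48.6 and 124 against 65.0 CPM) and LARP1 (518 against 311 and 347 against 246 CPM). EIF4E was lower (116 against 172 and 95.5 against 160 CPM). Under the knockdown DDIT4 fell by 1.12 ± 0.0424 in hypoxia and 0.69 ± 0.0543 in normoxia, where the ribosomal protein genes rose. LARP1, which binds and stores TOP mRNAs, rose under the knockdown by 0.58 ± 0.0373 in hypoxia and 0.34 ± 0.0387 in normoxia. RPTOR, the raptor subunit of mTOR complex 1, fell under the knockdown by 0.65 ± 0.045 and 0.42 ± 0.0535. MTOR itself was at 0.0013 ± 0.0385 under the knockdown in hypoxia and -0.01 ± 0.0478 in normoxia and was called in neither. Their part in the shift of the ribosomal protein genes was not tested.

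Ribosome biogenesis factors and RNA polymerase I genes also mostly fell in hypoxia, and those called under the knockdown were mostly higher. Over all genes 30.4% fell and 25.2% rose in hypoxia in shRIPOR3, and 32.4% fell and 32.4% rose in shControl. Under the knockdown 30.7% of all genes rose and 31.2% fell in hypoxia, and 25.1% rose and 20.6% fell in normoxia. Of 22 ribosome biogenesis factors, 13 fell and 3 rose in hypoxia in shRIPOR3, and 19 fell and 0 rose in shControl by edgeR, at adjusted and unadjusted p, and by DESeq2. With library totals 7 of them rose in shRIPOR3 and 2 in shControl, and with the filter of 1 CPM in 3 libraries 1 rose in shControl. Under the knockdown 17 rose and 2 fell in hypoxia, and 12 rose and 3 fell in normoxia. RRP9, which binds U3 small nucleolar RNA, fell in hypoxia by 0.48 ± 0.0467 in shRIPOR3 and 1.18 ± 0.0496 in shControl. Of the 22 factors, 15 had a higher response to hypoxia (a smaller fall or a larger rise) in shRIPOR3 and 0 a lower one. These counts were the same by edgeR at adjusted and unadjusted p and by DESeq2. The median difference was 0.30 against 0.07 for the ribosomal protein genes. Of all genes 10.9% had a higher response and 12.3% a lower one. Of 14 genes of RNA polymerase I and its factors, which transcribe rRNA, 10 fell and 2 rose in hypoxia in shRIPOR3, and 12 fell and 1 rose in shControl. Under the knockdown 10 rose and 0 fell in hypoxia, with edgeR at adjusted and unadjusted p and with DESeq2, and 6 rose and 2 fell in normoxia. In hypoxia 1 of the 14 fell under the knockdown after thinning and without replicate 2 of hypoxia shControl or of hypoxia shRIPOR3. Chaperones dedicated to single ribosomal proteins fell in 9 of 10 cases in hypoxia in shRIPOR3 and in 8 of 10 in shControl, with 0 that rose in either by edgeR or DESeq2, and 0 and 1 higher at an unadjusted p under 0.05. With library totals 5 of the 10 fell and 1 rose in shRIPOR3, and 2 rose in shControl. In shRIPOR3 1 also rose without replicate 2 or 3 of hypoxia shControl, each left out alone. In shControl 1 rose with upper-quartile factors, with the filter of 1 CPM in 3 libraries and without replicate 3 of normoxia shControl. Under the knockdown 7 chaperones rose and 2 fell in hypoxia, while 3 rose and 3 fell in normoxia, with a median of 0.02. Those counts in normoxia are near the shares of all genes.

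The proteins of the mitochondrial ribosome, which make up a separate set of 76 genes, moved in the same directions. In hypoxia 63 fell in shRIPOR3 and 72 in shControl, with medians of -0.35 and -0.58, and 0 rose in either by edgeR or DESeq2. At an unadjusted p under 0.05, 0 were higher in shRIPOR3 and 1 in shControl. With library totals 1 was called higher in each line. In shControl 1 was also called higher with upper-quartile factors and with the filter of 1 CPM in 3 libraries. The same held there without replicate 3 of normoxia shControl or of hypoxia shRIPOR3. Under the knockdown 64 rose and 2 fell in hypoxia, and 47 rose and 3 fell in normoxia, with medians of 0.41 and 0.17. Their response to hypoxia was higher in shRIPOR3 in 43 of 76 genes and lower in 1, with a median difference of 0.22. Of all genes 10.9% had a higher response and 12.3% a lower one. A TOP tract at the start stood in 4 of 67 promoters of mitochondrial ribosomal proteins (5.97%), near the share of all protein-coding promoters.

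**Figure D5:**
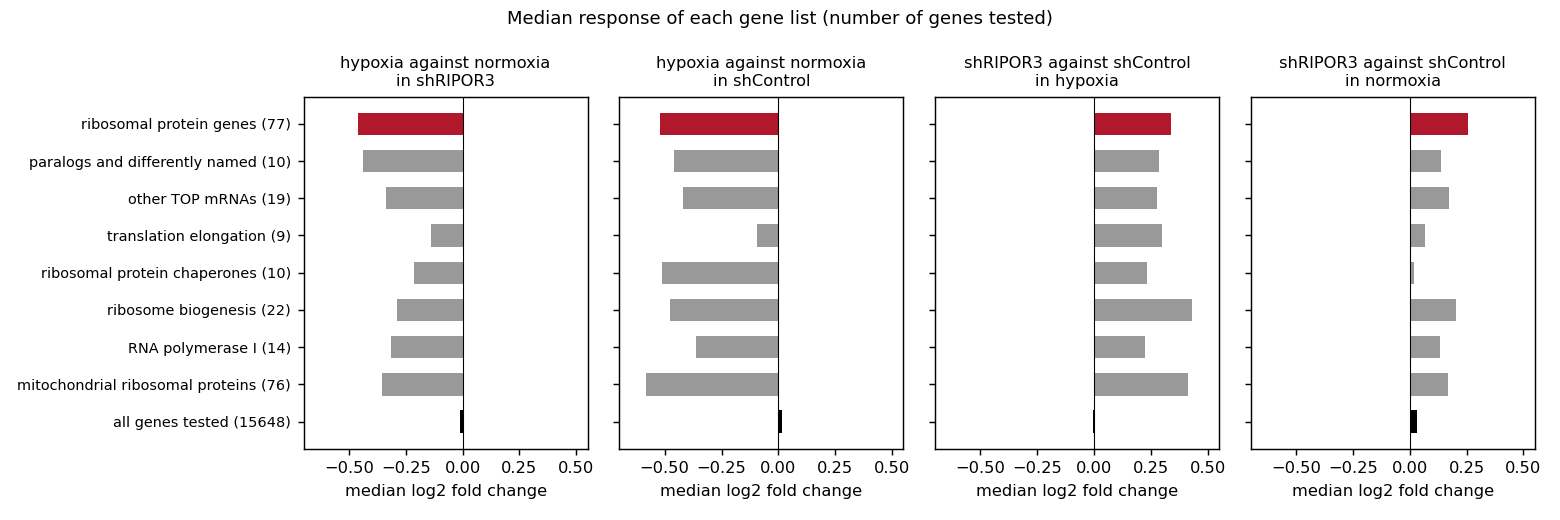
Median log2 fold change of each gene list in the 4 comparisons, with the number of genes tested in brackets; the ribosomal protein genes are in red and all genes tested in black. The ribosomal protein genes stand at -0.46 and -0.52 in hypoxia and at 0.34 and 0.26 under the knockdown, while the medians of all genes lie between -0.01 and 0.03.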

How the data were processed

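RNA-seq libraries that keep strand took 2 µg of RNA each, per the labels' protocols. The medium was DMEM with 10% serum and 1% antibiotics, held at 37 °C and 5% CO2, and hypoxia was 1% O2. Raw counts for each gene symbol in 12 libraries were deposited by the authors as a single table. The submitters' processing notes list GRCh38, featureCounts (no version), STAR 2.5.3a and fastp 0.23.4, in no stated role or order. The sources used here do not give the gene annotation, the strand setting or the counting of reads with several matches.

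The 77 genes were taken by symbol, and coordinates, exon overlaps and lengths came from GENCODE 29 (GRCh38). R 4.3.3 with edgeR 4.0.16 fitted 1 mean for each of the 4 groups to the counts of all libraries, with TMM factors and filterByExpr, which left 15648 genes. Quasi-likelihood F-tests were adjusted by Benjamini and Hochberg over those genes at a threshold of 0.05. Each SE was derived from the test, as the absolute log2 fold change divided by the square root of the F statistic. Levels are TMM-normalised CPM, and the common biological coefficient of variation was 3.74%. For values relative to the set, the summed counts of the 77 genes replaced the library size. Replicates differed by more than sampling noise (chi-square per degree of freedom 2.65 to 6.18). Deviations of same-numbered libraries from their group means were unrelated (median correlation 0.00187, 18 pairs), so the numbers were not used as pairs. After the main fit, the same procedure was run on data simulated from that fit's means and spread, with known changes.

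The members and lists were chosen with earlier results of these data known. The named genes are 14 chosen by role, the 4 highest and 4 lowest fold changes of each comparison at 5 CPM or more, the 4 highest and lowest levels per length, all paralogs, and up to 4 genes of each other list with the smallest p. Alternatives were DESeq2 1.42.0 and its size factors, upper-quartile factors, library totals, TMM without the 77 genes, other filters, fits of only the compared groups, a replicate block, an adjusted p under 0.01, thinning, and leaving out each library. EEF1G was not analysed here, and 2 of the 77 genes and 1 paralog or other ribosomal protein are counted but not reported here by name. Python 3.11.15 with pandas 2.3.3 and matplotlib 3.10.9 served for sequences and figures.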

Additional observations from a re-analysis of the deposited data

Results flagged for a closer look

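The response to hypoxia differed between the lines, by the interaction test in edgeR, for these 6 genes followed by name. The difference, shRIPOR3 minus shControl on the log2 scale, was 0.31 for RPL26 (-0.13 in shRIPOR3 and -0.44 in shControl, adjusted p = 0.0106). It was 0.30 for RPS15 (-0.18 and -0.47, adjusted p = 0.0104), 0.29 for RPL36 (-0.14 and -0.44, adjusted p = 0.000582) and 0.18 for RPSA (-0.50 and -0.68, adjusted p = 0.0117). Among the ribosomal proteins with other names it was 0.18 for RPL26L1 (-0.63 and -0.81, adjusted p = 0.0155) and -0.27 for RPL36AL (-0.40 and -0.13, adjusted p = 0.0107). RPL36AL is the one of the 6 that fell further in shRIPOR3. The call of RPL26L1 was lost after thinning (adjusted p = 0.0772) and without replicate 3 of hypoxia shRIPOR3 (0.0511), that of RPL36AL without replicate 2 or 3 of hypoxia shControl (0.0651 and 0.0592), and that of RPL26 after thinning (0.0802).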

How the results depend on the processing

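The number of ribosomal protein genes called under the knockdown in hypoxia as lower was 4 when genes had to reach 1 CPM in 3 libraries, with RPL4 and RPL5 added. The number with a higher hypoxia response in shRIPOR3 was 20 with DESeq2 and 5 at an adjusted p under 0.01, and the cause was not tested. Without the 50 most abundant other genes the set held 5.71% of counts in hypoxia shRIPOR3, 4.87% in hypoxia shControl, 7.44% in normoxia shRIPOR3 and 6.62% in normoxia shControl, since the total is smaller. Leaving out 1 library at a time gave 69 to 71 lower and 1 higher for hypoxia in shRIPOR3, and 74 to 75 lower and 0 higher in shControl. It gave 66 to 69 higher and 2 to 3 lower for the knockdown in hypoxia, and 61 to 63 higher and 2 to 3 lower in normoxia. For the interaction it gave 9 to 21 positive and 0 to 1 negative, the 21 without replicate 3 of hypoxia shControl. With the replicate block the counts were 71 and 1, 74 and 0, 68 and 2, and 63 and 3 in that order, and 12 positive for the interaction; the numbers do not pair the libraries. Library totals in place of TMM moved the median of all genes to 0.11 for hypoxia in shRIPOR3 and 0.13 in shControl, and the share of calls that were higher to 63.4% and 61.6%, against 45.3% and 50.02%. On that scale the medians of the ribosomal protein genes were -0.34 and -0.41. For the interaction DESeq2 gave 57.5% of calls as positive, against 47.0%. Of the values of single named genes over these settings, 3795 kept their side of the threshold, 59 lost the call and 30 gained it. Some values that were not called changed sign between settings, such as RPL7L1 for hypoxia in shControl (-0.07 to 0.07) and FAU for the knockdown in normoxia (-0.04 to 0.03). Depth limits RPS10, with 133 counts in all, most.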

Other observations

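Pseudogenes of the ribosomal protein genes, of which 110 had enough counts to be tested, had medians close to those of the genes themselves. For hypoxia the median log2 fold change was -0.41 in shRIPOR3 (58 lower, 1 higher) and -0.51 in shControl (65 lower, 4 higher). Of all genes 30.4% were lower and 25.2% higher in shRIPOR3, and 32.4% and 32.4% in shControl. For the knockdown the median was 0.30 in hypoxia (47 higher, 11 lower) and 0.21 in normoxia (30 higher, 3 lower). Of all genes 30.7% were higher and 31.2% lower in hypoxia, and 25.1% and 20.6% in normoxia. The number of pseudogenes higher in normoxia is near that share. Whether those counts are transcripts of the pseudogenes or reads of the genes was not tested.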
